A study of Mus musculus with 8 samples.

Results

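The genes described here are those of the imprinted Prader-Willi and Angelman region of mouse chromosome 7: Snrpn, Ndn, Magel2, Mkrn3, Peg12, Snhg14, Ube3a and Atp10a. These 8 of 18194 genes were read from every probe set that carries 1 of their symbols and no other symbol, 25 of 45101 on the array. Ndn had 8 of them, Ube3a 6, Atp10a 4, Snhg14 3, and Snrpn, Magel2, Mkrn3 and Peg12 had 1 each. A further 6 probe sets are annotated to Snurf and Snrpn together. They cannot be assigned to 1 gene and are not counted among the 25, but they are described because both proteins are read from 1 shared transcript.

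The study hybridised total RNA of 8 mouse samples to Affymetrix arrays, and each value is a log2 expression level. PSC (3 arrays) were parthenogenetic stem cells of strain C57BL/6, taken on day 6 from blastocysts grown out of oocytes that strontium chloride had activated without sperm, and both of their chromosome sets are maternal. EB_PSC (2 arrays) were the same kind of cell after 15 days of differentiation as embryoid bodies. ESC (3 arrays) were embryonic stem cells of line R1, which come from fertilised embryos, kept on a feeder layer of mouse embryonic fibroblasts (MEF) plus leukemia inhibitory factor (LIF). Line, strain, sex chromosomes and the stated culture differ between PSC and ESC together with the parental origin of the genome, and their effects cannot be told apart. The samples hold no embryoid bodies of ESC. EB_PSC and ESC therefore differ in differentiation as well, and its effect cannot be told apart from the others in that comparison. The labels do not say that arrays of 1 group are separate cultures, so the p-values here reflect array-to-array spread that may be purely technical.

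In this region the parental copies of a gene are used unequally. A control element near the start of the Snurf-Snrpn gene is methylated on the maternal copy, and Snurf-Snrpn, Snhg14, Ndn, Magel2, Mkrn3 and Peg12 are transcribed from the paternal copy. Snhg14 is a long noncoding host transcript of small nucleolar RNAs that runs on into Ube3a on the opposite strand. Ube3a is read from both copies in most tissues and from the maternal copy in neurons, where the antisense transcript silences the paternal one. Loss of the paternal genes underlies Prader-Willi syndrome in humans, and loss of maternal UBE3A underlies Angelman syndrome.

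The sequences before the starts of the genes whose probe sets differed most, Snhg14 and Snurf-Snrpn, are shown with that of Ndn, as RefSeq gives them for build GRCm38.p6. All 8 genes had an entry, in 10 distinct windows from 250 bases before to 50 after a start. The capitals mark CGCATGCG, the core of the motif bound by the transcription factor NRF1, which is its own reverse complement. Each sequence is the 250 bases before the start, on the strand of the gene.
Snhg14, start shared with a long Snrpn transcript, chr7:60450178-60450427, minus strand: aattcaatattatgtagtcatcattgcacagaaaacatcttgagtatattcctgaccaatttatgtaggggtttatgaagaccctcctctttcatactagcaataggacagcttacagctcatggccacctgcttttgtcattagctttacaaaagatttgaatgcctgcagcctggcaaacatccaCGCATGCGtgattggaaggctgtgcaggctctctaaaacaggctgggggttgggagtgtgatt
Snurf and Snrpn, nearest start, chr7:60005200-60005449, minus strand: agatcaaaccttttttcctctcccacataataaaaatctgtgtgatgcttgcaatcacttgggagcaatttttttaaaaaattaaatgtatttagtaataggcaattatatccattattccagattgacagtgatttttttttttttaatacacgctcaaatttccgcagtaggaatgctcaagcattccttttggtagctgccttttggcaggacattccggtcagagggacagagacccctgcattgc
Ndn, chr7:62348027-62348276, plus strand: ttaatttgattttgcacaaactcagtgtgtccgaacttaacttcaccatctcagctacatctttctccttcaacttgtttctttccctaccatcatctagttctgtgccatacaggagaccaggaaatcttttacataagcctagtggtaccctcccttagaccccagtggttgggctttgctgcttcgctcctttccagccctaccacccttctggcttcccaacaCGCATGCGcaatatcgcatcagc

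The NRF1 core lay in 5 of the 10 windows, against 1.86% of 32817 RefSeq windows of the same length. In the 3 upstream windows of Snrpn, one of which is shared with Snhg14, it began 63, 78 and 71 bases before the start. These 3 windows were 79.8% to 81.1% identical to one another, so their matches are not separate occurrences. In Ndn it began 23 bases before the start, and at the nearest Snurf-Snrpn start it began 36 bases after it. The 20 bases around each match, in the order of the positions along the chromosome, show how alike the flanks are.
Snurf and Snrpn, nearest start, chr7:60005150-60005169, minus strand: ctgggaCGCATGCGtaggga
Snrpn, upstream start, chr7:60048036-60048055, minus strand: catgcaCGCATGCGtcgttg
Snrpn, upstream start, chr7:60140290-60140309, minus strand: catccaCGCATGCGtgatgg
Snhg14 and Snrpn, upstream start, chr7:60450227-60450246, minus strand: catccaCGCATGCGtgattg
Ndn, chr7:62348248-62348267, plus strand: ccaacaCGCATGCGcaatat

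A second motif, AANATGGC on either strand (the core bound by YY1; GCCATNTT as its reverse complement, with no overlap with the first), lay in 2 of the 10 windows, those of Ube3a and Mkrn3, against 6.04% of all. The window of Ube3a held 29 CpG, which 12.9% of all windows reach, and that of the shared Snhg14 and Snrpn start held 2, where the median of all windows was 7. The arrays measured no binding or methylation, and a match describes only the letters.

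Against ESC, 7 of the 25 probe sets were lower in PSC and 1 was higher, where 8.5% of all probe sets were called lower and 7.05% higher (limma, adjusted p under 0.05 over all 45101). The 7 were the 3 of Snhg14, 3 of Ube3a and 1 of Ndn, and probe sets of a gene share a target and are not separate observations. The median difference of the 25 was -0.12, against 0.02 for all probe sets. The number called lower was 3 without PSC 2 or without ESC 1 and 4 without ESC 3; the Snhg14 probe sets were called lower in every alternative that tested them (the filter on dim probe sets removed 1445296_at, and the settings by gene gave 1 value for the 3). Of the 25, 13 were above the dim limit, the median of all deposited values at 5.44, in at least 1 group, against 55.0% of all probe sets. A probe set whose group mean lies under that limit is called dim there, and no fold is given for it. Arrays of 2 groups often did not overlap. Of all 45101 probe sets this held for 14443 in PSC against ESC, 25540 in EB_PSC against PSC and 24881 in EB_PSC against ESC. Of the 25, 3 lay above and 9 below in the first, 10 and 1 in the second, and 6 and 8 in the third.

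**Figure D1:**
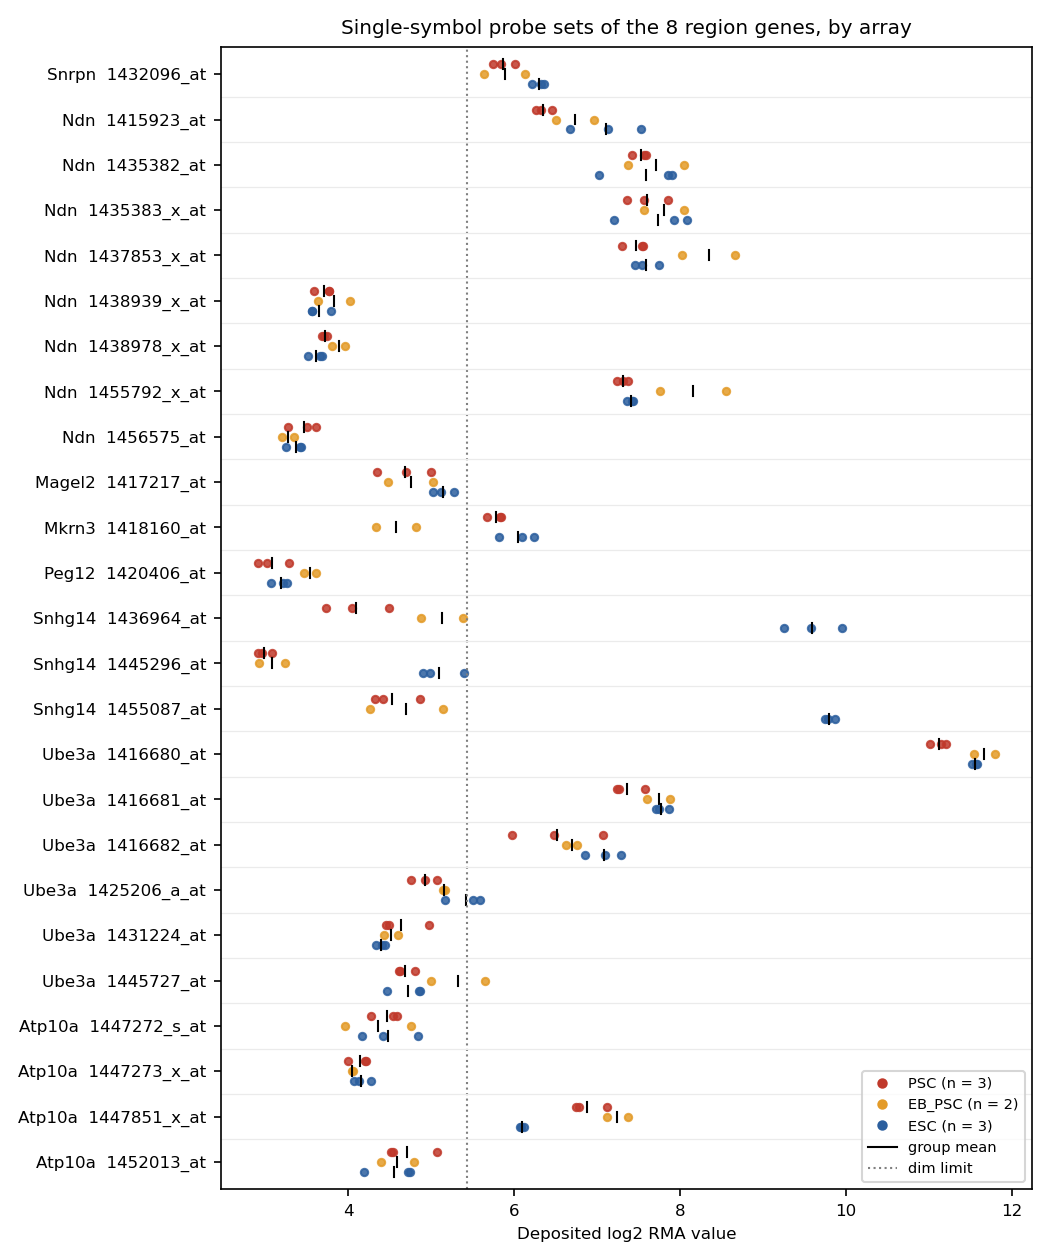
Deposited log2 value (horizontal) of each of the 25 probe sets (vertical, gene and probe set) on every array, coloured by group, with a black bar at the group mean and a dotted line at the dim limit of 5.44. For Snhg14 1455087_at and 1436964_at the 3 ESC arrays lie between 9.25 and 9.96 and all 5 other arrays lie at 5.39 or below.

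Of the 25 probe sets, those of Snhg14 gave the largest differences between PSC and ESC. Probe set 1455087_at read 4.42, 4.32 and 4.87 in PSC, 4.27 and 5.14 in EB_PSC, and 9.75, 9.87 and 9.79 in ESC. All 3 ESC arrays were high and the other 5 were dim, with no overlap. On their own arrays these values stood at percentiles 28.1 to 40.7 of all probe sets in PSC and 91.3 to 92.4 in ESC. The difference of PSC from ESC was -5.27 ± 0.20 (SE; limma adjusted p = 1.81e-08). Here and wherever a group is dim, such a difference is that of the deposited values, and its size is not a measured fold. As in every comparison of these bulk samples, fewer cells with the transcript and less of it per cell cannot be told apart.

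The second Snhg14 probe set, 1436964_at, read 4.04, 3.74 and 4.50 in PSC, 4.88 and 5.39 in EB_PSC, and 9.25, 9.96 and 9.58 in ESC. Again the ESC arrays stood apart from the others, by -5.50 ± 0.22 for PSC against ESC (limma adjusted p = 2.19e-08). The third, 1445296_at, was dim in all groups, at 2.91, 2.96 and 3.08 in PSC, 2.93 and 3.24 in EB_PSC, and 5.40, 4.90 and 4.99 in ESC. Its ESC arrays were nevertheless all above the other 5, and the difference of PSC from ESC was -2.12 ± 0.15 (limma adjusted p = 2.51e-06).

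After 15 days as embryoid bodies Snhg14 was still far below ESC in all 3 probe sets, by -5.10 ± 0.23, -4.47 ± 0.24 and -2.02 ± 0.16 for 1455087_at, 1436964_at and 1445296_at (limma adjusted p at most 9.89e-07). Against PSC only 1436964_at rose, by 1.04 ± 0.24 (limma adjusted p = 0.0048), with both groups dim. That call was lost without EB_PSC 2 (0.78, adjusted p = 0.0723). For 1455087_at and 1445296_at the differences were 0.17 ± 0.23 and 0.10 ± 0.16 (limma adjusted p = 0.63 and 0.69).

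Snurf-Snrpn encodes the small protein SNURF and SmN, a close relative of the spliceosomal core protein SmB. The single-symbol Snrpn probe set, 1432096_at, read 6.01, 5.84 and 5.75 in PSC, 5.65 and 6.13 in EB_PSC, and 6.22, 6.33 and 6.37 in ESC. The 3 ESC arrays were above all 5 others, by small margins. The differences from ESC were -0.44 ± 0.14 for PSC and -0.41 ± 0.16 for EB_PSC and did not pass the test (limma adjusted p = 0.0525 and 0.0559). The first passed under 7 of the alternatives, with adjusted p from 0.0133 to 0.0488 in those. The second passed with the filter on dim probe sets, by the brightest probe set, by the gene mean and with array weights. Its limma adjusted p was from 0.0295 to 0.0433 in those. Without EB_PSC 2 the second difference was -0.66.

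Of the 6 probe sets shared by Snurf and Snrpn, 5 gave larger differences between PSC and ESC than this one. For 1421063_s_at the values were 5.76, 5.64 and 6.03 in PSC, 4.26 and 4.30 in EB_PSC, and 10.63, 10.01 and 10.51 in ESC. The 3 groups did not overlap: ESC was highest, PSC just above the dim limit and EB_PSC below it. PSC was 23.8-fold lower than ESC (-4.57 ± 0.16; limma adjusted p = 9.03e-09), and EB_PSC was lower than PSC by a further -1.53 ± 0.18 (limma adjusted p = 2.94e-05).

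Probe set 1435716_x_at read 7.72, 7.55 and 7.56 in PSC, 7.05 and 7.48 in EB_PSC, and 11.71, 11.45 and 11.65 in ESC. All 8 arrays were above the dim limit, and PSC was 16.0-fold lower than ESC (-4.00 ± 0.14; limma adjusted p = 7.38e-09). Probe set 1415895_at read 10.36, 10.44 and 10.10 in PSC, 10.15 and 10.25 in EB_PSC, and 11.55, 11.52 and 11.77 in ESC. Its PSC arrays were again all below its ESC arrays, but the fold was 2.48 (-1.31 ± 0.13; limma adjusted p = 3.35e-05), and 1415896_x_at gave -1.27 ± 0.13 (limma adjusted p = 6.24e-05). The 2 other shared probe sets were dim in all groups: 1441905_x_at was lower in PSC by -1.36 (limma adjusted p = 0.00055), and 1460075_x_at gave -0.16 (limma adjusted p = 0.41).

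The probe sets of Snurf-Snrpn disagree in size, from no call to more than 4 log2 units, although all 6 differences of PSC from ESC are negative. Snrpb, which encodes SmB, gave -0.09 ± 0.15 for PSC against ESC (limma adjusted p = 0.77), with PSC and ESC means of 12.25 and 12.34. Among the 5 measured genes of the Sm ring, the protein core that SmN can join, 1 was called in this comparison: Snrpd3 was lower by -0.51 ± 0.16 (limma adjusted p = 0.0459). Over all genes the share called was 18.7%. What part transcripts of other genes have in the _x_at and _s_at signals was not tested.

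**Figure D2:**
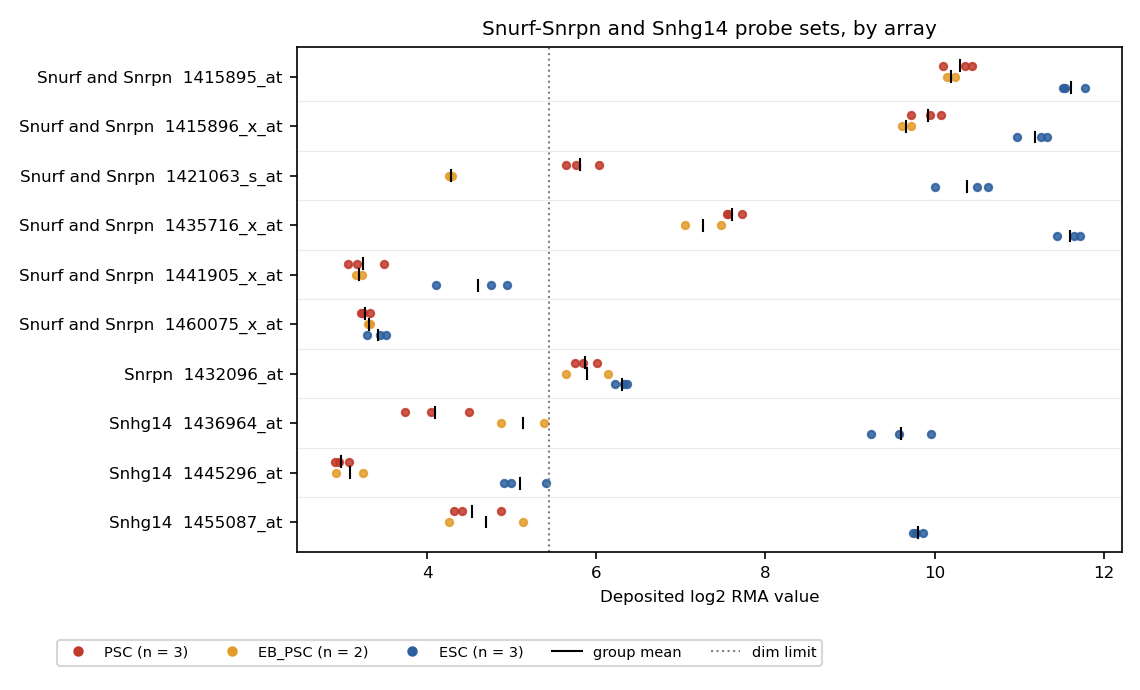
Deposited log2 value (horizontal) on every array of the 6 probe sets shared by Snurf and Snrpn, the 1 Snrpn probe set and the 3 Snhg14 probe sets; black bars are group means and the dotted line is the dim limit. In 1421063_s_at PSC lie between 5.64 and 6.03 and ESC between 10.01 and 10.63, whereas in 1415895_at both groups lie above 10.

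Between PSC and ESC, Ndn, Magel2, Mkrn3 and Peg12 gave smaller differences than Snhg14 and the largest of the shared Snurf and Snrpn probe sets. Those of Ndn 1415923_at and of Magel2 (-0.46) were larger than that of Snrpn 1432096_at (-0.44). Ndn encodes necdin, a growth-restraining MAGE protein of neurons and some mesenchymal cells. Its probe set 1415923_at read 6.26, 6.33 and 6.45 in PSC, 6.50 and 6.96 in EB_PSC, and 7.53, 6.67 and 7.13 in ESC. The ESC arrays lay above the PSC arrays, and the EB_PSC arrays overlapped the range of ESC. PSC was lower by -0.76 ± 0.19, a 1.70-fold difference (limma adjusted p = 0.018). The call was lost without PSC 1 (adjusted p = 0.0774), PSC 2 (0.0669), ESC 1 (0.0645) or ESC 3 (0.0575).

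The other 7 Ndn probe sets did not differ between PSC and ESC by the test, with differences from -0.14 to 0.10 (limma adjusted p from 0.64 to 0.90). Among these, 1438939_x_at, 1438978_x_at and 1456575_at were dim in all groups, which limits what they can show. In EB_PSC 2 of the 7 rose. Probe set 1437853_x_at read 7.56, 7.54 and 7.30 in PSC, 8.02 and 8.67 in EB_PSC, and 7.46, 7.75 and 7.55 in ESC, and 1455792_x_at read 7.32, 7.38 and 7.24, then 7.77 and 8.56, then 7.43, 7.43 and 7.37. Both EB_PSC arrays were above all others, with EB_PSC 2 the higher.

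Against PSC these Ndn probe sets rose by 0.88 ± 0.18 and 0.85 ± 0.19 (limma adjusted p = 0.00211 and 0.00336), and against ESC by 0.76 ± 0.18 and 0.75 ± 0.19 (limma adjusted p = 0.00504 and 0.00662). The calls against ESC were lost without EB_PSC 2 (adjusted p = 0.0906 and 0.103), and the mean over all 8 Ndn probe sets gave 0.33 against PSC (adjusted p = 0.0706) and 0.21 against ESC (0.24). That mean includes the probe sets that were dim in all groups. The remaining 5 were called in no comparison. Of the 13 fibroblast marker genes measured, 10 were higher and 1 lower in EB_PSC than in PSC, where 41.7% of all genes were called. Their summed linear level was 819 to 933 in PSC, 11907 to 14630 in EB_PSC and 1417 to 1906 in ESC. Their part in the Ndn values was not tested.

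Magel2, Mkrn3 and Peg12 are paternally read genes without introns, as is Ndn; Magel2 encodes a MAGE protein that works with a ubiquitin ligase on endosomes, Mkrn3 a ring-finger protein that restrains puberty, and Peg12 a relative of the Frat proteins that bind GSK3. Magel2 was dim in all groups, at 5.00, 4.36 and 4.71 in PSC, 4.49 and 5.02 in EB_PSC, and 5.02, 5.12 and 5.28 in ESC. The ESC arrays were above the PSC arrays and overlapped EB_PSC, and PSC against ESC gave -0.46 ± 0.18 (limma adjusted p = 0.11).

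Mkrn3 moved with differentiation. It read 5.67, 5.83 and 5.84 in PSC, 4.82 and 4.34 in EB_PSC, and 6.24, 6.10 and 5.82 in ESC. PSC and ESC overlapped and did not pass the test (-0.27 ± 0.15; limma adjusted p = 0.28), while both EB_PSC arrays were dim and below all 6 others. EB_PSC was lower than PSC by -1.21 ± 0.17 and lower than ESC by -1.48 ± 0.17 (limma adjusted p = 0.000109 and 1.76e-05), and both calls held under every alternative tried.

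Peg12 was dim in all groups, at 3.02, 2.92 and 3.29 in PSC, 3.47 and 3.62 in EB_PSC, and 3.08, 3.26 and 3.22 in ESC. Both EB_PSC arrays were above the others. It was called higher in EB_PSC than in PSC (0.47 ± 0.14; limma adjusted p = 0.0208), and the call was lost without PSC 1 (0.0619), PSC 2 (0.0761) or EB_PSC 2 (0.13).

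Ube3a encodes an E3 ubiquitin ligase. Its brightest probe set, 1416680_at, read 11.21, 11.01 and 11.15 in PSC, 11.80 and 11.54 in EB_PSC, and 11.57, 11.52 and 11.58 in ESC. PSC arrays were the lowest, and EB_PSC and ESC overlapped. PSC was lower than ESC by -0.43 ± 0.12, a 1.35-fold difference (limma adjusted p = 0.0228), and EB_PSC was higher than PSC by 0.55 ± 0.13, or 1.46-fold (limma adjusted p = 0.005).

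Both Ube3a calls rested on few arrays. That of PSC against ESC was lost without PSC 2 (adjusted p = 0.0942), PSC 3 (0.0524), ESC 1 (0.0626) or ESC 3 (0.0759) and in the mean over all 6 probe sets (-0.29, adjusted p = 0.0723). That of EB_PSC against PSC was lost without EB_PSC 1 (adjusted p = 0.0671). Of the other probe sets, 1416681_at (-0.42 ± 0.13; limma adjusted p = 0.0494) and the dim 1425206_a_at (-0.50 ± 0.14; limma adjusted p = 0.0253) were also lower in PSC. The former lost its call without PSC 1 (0.18), PSC 2 (0.17), ESC 1 (0.0812), ESC 2 (0.0692) or ESC 3 (0.16), and the latter without PSC 2 (0.11), PSC 3 (0.0646), ESC 1 (0.0976) or ESC 2 (0.0613). The former was also lost with quantile normalization again (0.0706), cyclic loess (0.0684) and a trended and robust prior (0.0590), and the latter with array weights (0.0675).

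Probe set 1416682_at gave -0.57 ± 0.22 for PSC against ESC and did not pass (limma adjusted p = 0.11); its PSC arrays ranged from 5.98 to 7.08, and without PSC 3 it passed (-0.85, adjusted p = 0.0111). Probe set 1431224_at, dim in all groups, gave 0.24 ± 0.14 (limma adjusted p = 0.32). The dim 1445727_at was not different there (-0.04 ± 0.17; limma adjusted p = 0.91) but was called higher in EB_PSC than in PSC and ESC (0.64 ± 0.19 and 0.60 ± 0.19; limma adjusted p = 0.0185 and 0.0252), and both calls were lost without EB_PSC 1 (0.27 and 0.35). The first was also lost without PSC 1 (0.0576) or PSC 2 (0.0586), and the second without ESC 3 (0.10). Of the 14 neuron markers measured, 2 were higher and 6 lower in EB_PSC than in PSC, where 41.7% of all genes were called. The largest rise was that of Gap43, dim in PSC, at 2.87 ± 0.24 (limma adjusted p = 1.24e-06). The largest fall was that of Eno2, dim in EB_PSC, at -1.62 ± 0.20 (limma adjusted p = 3.98e-05). Stmn2, Nefl, Tubb3, Elavl3 and Rbfox3 were above the dim limit in every group, and Snap25, Syt1, Map2, Dcx, Nefm and Elavl4 were dim in every group. The summed linear level of the list was 3462 to 3954 in PSC, 2437 to 2949 in EB_PSC and 2760 to 3174 in ESC. Most of each sum is Stmn2, the brightest of the list, with means of 11.48 in PSC, 10.62 in EB_PSC and 10.93 in ESC. Of the 14 markers, 7 were dim in PSC, 8 in EB_PSC and 8 in ESC. The part of neuron markers in the Ube3a values was not tested.

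Atp10a, at the edge of the region, encodes a phospholipid flippase whose imprinting has been found to vary with tissue and strain. Probe set 1447851_x_at read 6.74, 7.12 and 6.78 in PSC, 7.37 and 7.12 in EB_PSC, and 6.09, 6.12 and 6.07 in ESC. The ESC arrays were below all others. PSC was higher than ESC by 0.79 ± 0.13 (1.73-fold; limma adjusted p = 0.00141) and EB_PSC by 1.15 ± 0.14 (2.22-fold; limma adjusted p = 4.02e-05), while EB_PSC against PSC did not pass (0.36 ± 0.14; limma adjusted p = 0.0735). The 3 other Atp10a probe sets were dim in all groups and were called in no comparison, and the mean of all 4 lost both calls, at 0.23 for PSC against ESC (adjusted p = 0.22) and 0.24 for EB_PSC against ESC (0.17).

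Over all 25 probe sets, 6 were higher and 1 lower in EB_PSC than in PSC, where 15.7% of all probe sets were called higher and 18.8% lower. The 6 were 2 of Ndn, 2 of Ube3a, 1 of Snhg14 and Peg12, and the 1 was Mkrn3. Against ESC 4 were higher and 4 lower, where 16.4% of all were higher and 19.4% lower; the 4 lower were the 3 of Snhg14 and Mkrn3. Without EB_PSC 2 the number higher than ESC was 2. Median differences were 0.18 against PSC and -0.03 against ESC, and -0.08 and -0.05 for all probe sets. These comparisons share arrays and are given side by side only.

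**Figure D3:**
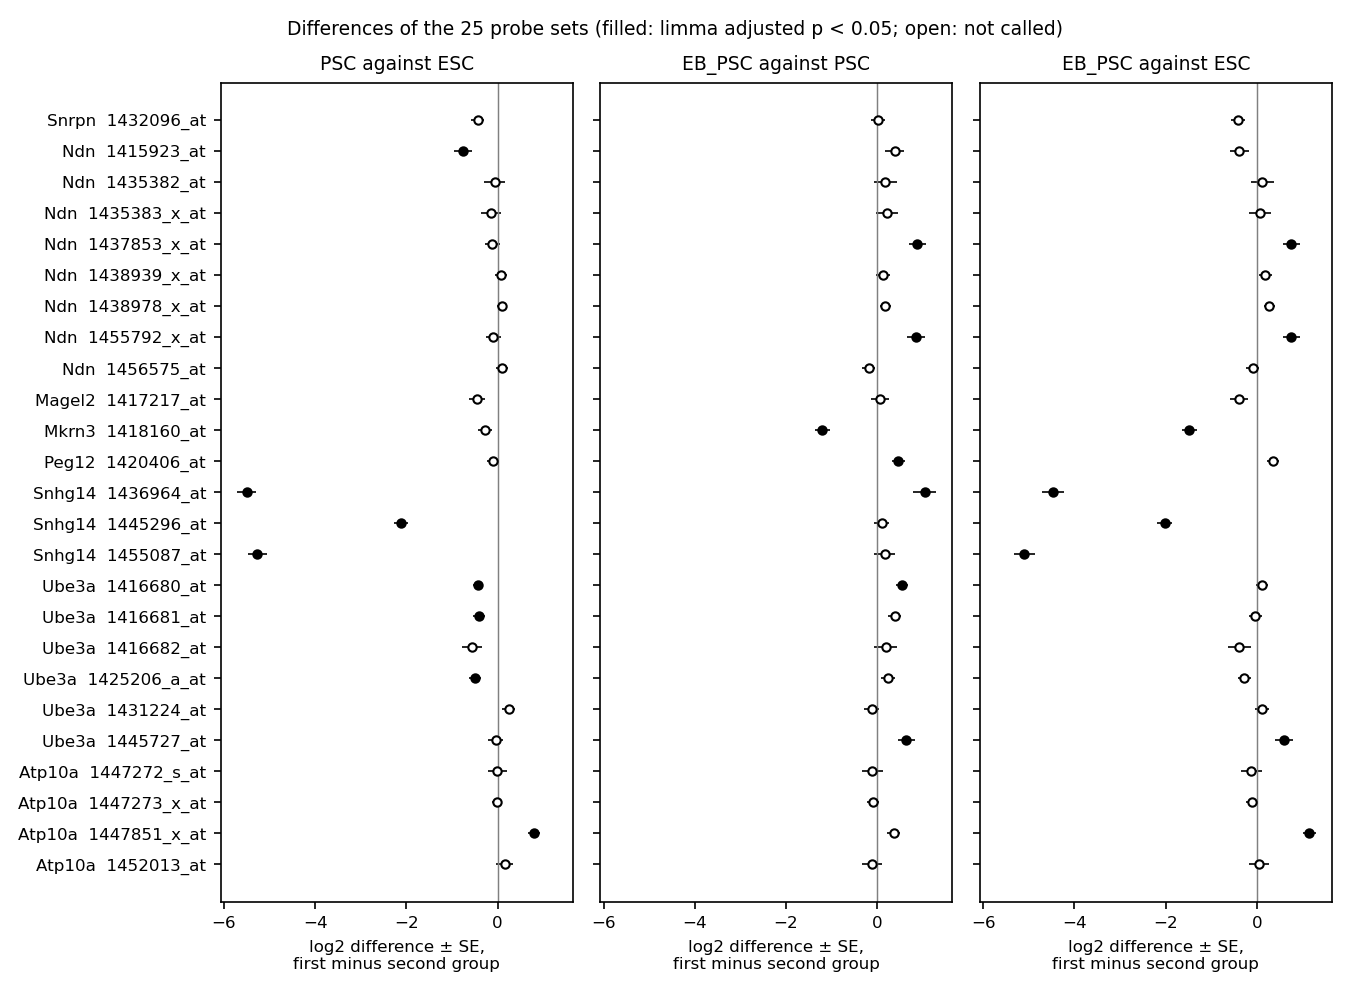
Log2 difference with its SE (horizontal, first minus second group, the same range in all panels) of each of the 25 probe sets (vertical) in the 3 comparisons, which share arrays; filled points passed limma at adjusted p under 0.05. The Snhg14 probe sets lie between -5.50 and -2.12 in PSC against ESC and between -5.10 and -2.02 in EB_PSC against ESC, and Mkrn3 is the one filled point left of 0 in EB_PSC against PSC.

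Along the chromosome, the large differences between PSC and ESC were at Snhg14 and Snurf-Snrpn. Of 12 flanking genes with a probe set of their own, taken by the brightest, 2 were higher, 1 lower and 9 not called. The median was -0.05, and 18.7% of all 18194 genes were called by their brightest probe set. Klf13, a zinc-finger transcription factor gene, read 8.14, 7.85 and 7.85 in PSC and 9.03, 9.12 and 9.03 in ESC (-1.11 ± 0.12; limma adjusted p = 6.66e-05). Trpm1, a cation channel gene, was higher in PSC by 1.12 ± 0.16 (limma adjusted p = 0.000642), as was Herc2, whose protein binds that of Ube3a, by 0.46 ± 0.11 (limma adjusted p = 0.0126). For Trpm1 and for Herc2 these are 1 of 4 probe sets, and the other 3 were not called; for Klf13 2 of 3 were called lower.

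**Figure D4:**
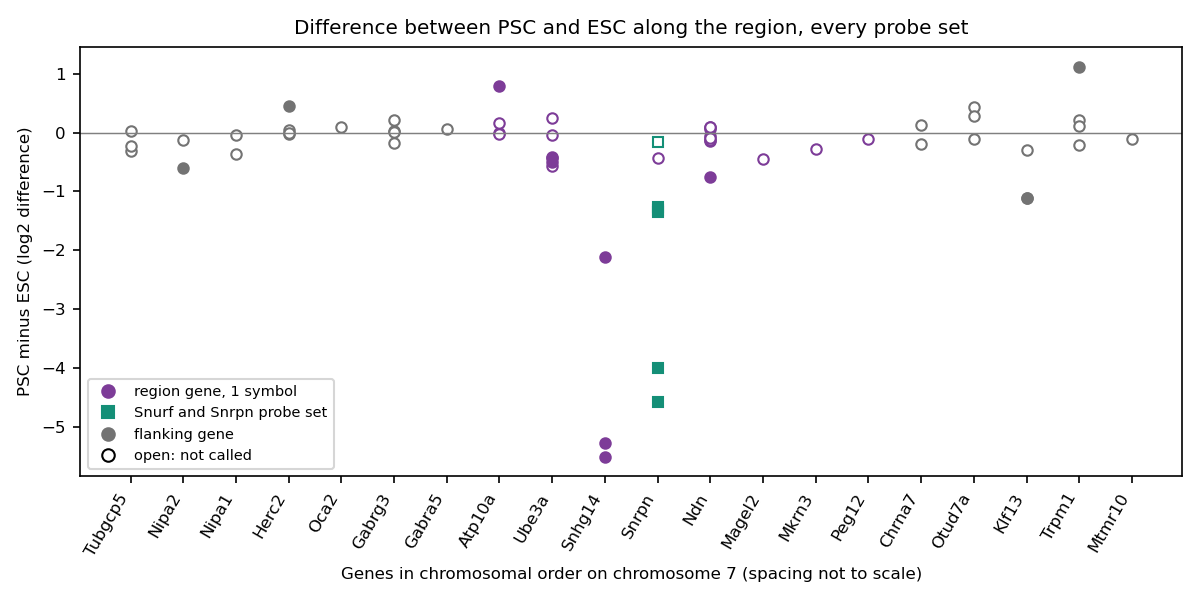
Log2 difference of PSC from ESC (vertical) for every probe set of the region genes and their neighbours with a probe set of their own, in the order along chromosome 7 with spacing not to scale; Snrpn and the shared Snurf and Snrpn probe sets stand in 1 column, and open symbols did not pass limma at adjusted p under 0.05. The Snhg14 probe sets lie down to -5.50 and the shared ones down to -4.57, whereas the neighbours' largest differences are 1.12 for Trpm1 and -1.12 for Klf13.

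Imprinted genes elsewhere were read from lists. Of 18 other paternally expressed genes measured, 11 were lower and 2 higher in PSC than in ESC, where 18.7% of all genes were called. The median was -0.98 against 0.01 over the brightest probe sets of all genes. The largest differences were those of Peg3 (-4.58 ± 0.14, limma adjusted p = 4.22e-09) and Mest (-4.48 ± 0.20, limma adjusted p = 4.89e-08). The 2 called higher were Slc38a4 (1.94 ± 0.14, limma adjusted p = 3.01e-06) and Sfmbt2 (0.46 ± 0.12, limma adjusted p = 0.0182). In EB_PSC 9 of the 18 were higher than in PSC and 1 was lower, where 41.7% of all genes were called. The largest rises were those of Igf2 (5.38 ± 0.16, limma adjusted p = 1.97e-10) and Plagl1, dim in PSC (4.32 ± 0.23, limma adjusted p = 2.73e-08). Peg3 read 5.67, 5.48 and 5.98 in PSC and 8.94 and 9.09 in EB_PSC, a rise of 3.30 ± 0.15 (limma adjusted p = 7e-09). Snhg14 1455087_at gave 0.17 and 1436964_at gave 1.04. Peg10, Kcnq1ot1 and Mcts2 were lower in PSC than in ESC and were not called in EB_PSC against PSC. Their differences there were 0.02 ± 0.20, -0.27 ± 0.24 and 0.16 ± 0.13 (limma adjusted p = 0.95, 0.43 and 0.38). The other genes of this list that were lower in PSC than in ESC were called higher in EB_PSC than in PSC. Whether these responses differ was not tested.

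Of 20 other maternally expressed genes, 6 were higher and 2 lower in PSC than in ESC, with a median of 0.18. Of all genes, 18.7% were called in that comparison. Grb10, a growth-restraining adaptor gene, was higher by 2.64 ± 0.13 and Phlda2, a placental growth regulator, by 1.51 ± 0.14 (limma adjusted p = 1.05e-07 and 2.54e-05). In EB_PSC against PSC 9 were higher and 6 lower, where 41.7% of all genes were called. Among 11 genes whose proteins set or keep imprints, 1 was higher and 1 lower in PSC than in ESC. The share called over all genes was 18.7%. The higher was Dppa3 (1.25 ± 0.19, limma adjusted p = 0.000925) and the lower Ehmt2 (-1.17 ± 0.16, limma adjusted p = 0.000433).

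In EB_PSC 8 of those 11 fell and 1 rose against PSC, where 41.7% of all genes were called. The largest falls were those of the maintenance methylation cofactor Uhrf1 (-2.02 ± 0.16; limma adjusted p = 8.12e-07) and the corepressor Trim28 (-1.83 ± 0.17; limma adjusted p = 4.23e-06). Next came Ehmt2 (-1.31 ± 0.18; limma adjusted p = 9.41e-05) and Zfp57, which guides Trim28 to imprints (-1.26 ± 0.17; limma adjusted p = 7.18e-05). Of 12 genes for partners of the encoded proteins, 1, Herc2, was called in PSC against ESC, where 18.7% of all genes were called. In EB_PSC against PSC 2 of the 12 were higher and 5 lower, where 41.7% of all genes were called.

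The genes whose patterns were most like that of Snhg14 1455087_at, by Pearson r over the 8 arrays among 6775 probe sets searched, were Slc47a1 (0.996), Uba1y (0.994), Eif2s3y (0.994), Crxos (0.993) and Uba6 (0.990). Uba1y and Eif2s3y are on the Y chromosome, and their means were 3.87 and 4.74 in PSC and 7.38 and 10.31 in ESC. The 8 arrays fall into ESC and the rest in all of these, so r describes that split. Of the 3 Y-linked genes on the list, all were dim in PSC and EB_PSC, and 2 were lower in PSC than in ESC. For all genes the share called there was 18.7%. Most like Ndn 1437853_x_at were Clca3a1 (0.985), Fbxo32 (0.985), Rtp4 (0.980), Lpl (0.976) and Vamp5 (0.974), all with their highest mean in EB_PSC.

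The arrays of a group correlated at 0.994 to 0.995 in PSC, 0.991 to 0.995 in ESC and 0.992 in EB_PSC, and PSC with ESC at 0.978 to 0.986. The 3' minus 5' log2 difference of Gapdh, a sign of RNA integrity, was -0.06 to 0.00 in PSC, -0.09 to -0.06 in EB_PSC and 0.08 to 0.17 in ESC; that of Actb was 1.04 to 1.54, 1.09 to 1.17 and 0.69 to 1.13. Fibroblast markers, which feeder cells also express, were lower in PSC than in ESC for 7 of 13 genes and higher for none. Of all genes, 18.7% were called in that comparison. None of 10 pluripotent cell markers was dim in PSC, EB_PSC or ESC. In PSC 1 of the 10 was higher and 2 were lower than in ESC. All 10 fell and 8 of 10 cardiomyocyte markers rose from PSC to EB_PSC, where 41.7% of all genes were called. The part of these in the values of the region was not tested.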

How the data were processed

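The 8 arrays were hybridised with biotin-labelled total RNA, per the labels. The authors deposited log2 values of expression, made with RMA per the submitters' processing notes and with Bioconductor per the labels. RMA corrects background, equalises arrays and summarises probes; its version and which arrays entered 1 run are not given here. The deposited table holds 45101 probe sets with values from 2.56 to 14.86. An array has no read depth, and the number of arrays limits the precision. GEO's platform annotation gave 34958 probe sets 1 symbol, 932 several and 9211 none; all 25 member probe sets matched RefSeq by gene ID.

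The values were used as deposited. One limma 3.58.1 model (R 4.3.3) with group as the only term was fitted to all 8 arrays (5 residual and 7.13 prior degrees of freedom). It compared PSC with ESC, EB_PSC with PSC and EB_PSC with ESC, two-sided. P-values were Benjamini-Hochberg adjusted over all 45101 probe sets, also for genes of lists, and called at 0.05. Errors are the model's SE. The fit was checked on simulated data.

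The rule for named genes was every probe set of the 8 genes; lists by the brightest probe set of each gene, with up to 4 called genes named; and the 5 genes most like Snhg14 and Ndn among single-gene probe sets above the dim limit whose group means span at least 1 log2 unit. Members and lists were chosen with earlier results of these data known. Promoters came from RefSeq, GRCm38.p6. Alternatives were other normalizations, filters, gene summaries, fits, a replicate block and leaving out each array. Of 8 visceral endoderm markers, a further list, 5 rose and 1 fell from PSC to EB_PSC, where 41.7% of all genes were called.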

Additional observations from a re-analysis of the deposited data

How the results depend on the processing

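No called value changed sign under any alternative. Over the single probe sets and alternatives, the call stayed on its side of the threshold in 391, 375 and 374 cases, was lost in 23, 9 and 8 and was gained in 9, 8 and 10, for PSC against ESC, EB_PSC against PSC and EB_PSC against ESC. All probe sets called numbered 7015, 15550 and 16188. By the brightest probe set of a gene there were 3782, 7995 and 8165 calls, by the gene mean 3571, 8116 and 8348, and at 1 log2 unit or more 1147, 5614 and 6552; the first 2 settings test fewer features. Leaving out 1 array gave 4375 to 7640 for PSC against ESC.

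The 7 members lower in PSC than in ESC were 3 by the brightest probe set, 2 by the gene mean, 3 at 1 log2 unit, 3 to 6 without 1 array, and 12 with the Snurf and Snrpn probe sets (added once the values had been seen). The 1 higher was 0 without _x_at and _s_at probe sets, 0 by the mean and 0 at 1 log2 unit. The 6 higher in EB_PSC than in PSC were 3, 2 and 1 under the brightest, the mean and 1 log2 unit, and the 1 lower was 2 with the shared probe sets. The 4 higher in EB_PSC than in ESC were 1 without _x_at and _s_at, 2 by the brightest, 1 by the mean, 1 at 1 log2 unit and 2 to 4 without 1 array, and the 4 lower were 9 with the shared probe sets. The cause was not tested.

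Cyclic loess moved the share of calls that were higher from 45.4% to 57.1% for EB_PSC against PSC and from 45.8% to 56.5% for EB_PSC against ESC. The median difference of all probe sets moved from -0.0797 to -0.005 and from -0.0477 to -0.0055. Replicate numbers are shared between groups, but deviations of same-numbered arrays correlated at -0.25, -0.04 and -0.03 for PSC with ESC, -0.14 and 0.05 for EB_PSC with PSC, and 0.16 and 0.19 for EB_PSC with ESC. Both pairs of EB_PSC with ESC are over 0.1, and no pair of the other comparisons is. The deviations of the 2 EB_PSC arrays mirror each other, so these values are not separate checks and do not decide the pairing. No label names a shared source, so the arrays were taken to share only a number. With the replicate number as a block 6521, 14458 and 15058 probe sets were called, and the members' counts stayed within 1.5 times of those without it; single calls changed for Ube3a 1445727_at, lost for EB_PSC against ESC (adjusted p = 0.0505), and Ube3a 1416681_at, gained for EB_PSC against PSC (0.0344). Dim probe sets, 12 of the 25 in every group, limit what can be seen of Magel2 and Peg12.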
